A study of Mus musculus with 18 samples.

Results

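The collagen genes were followed across all line and genotype groups of the RNA-seq series. A member was any gene symbol of the form COL, a number, A and a number that stood in the count tables of both cell lines, which gave 44 of the 24333 symbols that the tables shared. By structural group, these were 11 fibrillar, 9 network-forming, 9 FACIT and 4 transmembrane collagens, 6 chains of the beaded-filament collagen VI and 5 anchoring, multiplexin and other collagens. The rule uses no measured value, but it was set with earlier results of these data known.

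The lines, 168FARN and 67NR, derive from the same BALB/c mouse mammary tumour, were used by the study as non-metastatic cells, and were grown as cultures in DMEM with 10% FBS. Each line had a WT, a *Kmt2c* KO and a *Kmt2d* KO group, with 3 replicates per group and 18 libraries in all. *Kmt2c* and *Kmt2d* encode histone methyltransferases that act at enhancers. The KO groups were sorted pools, not clones, made by transient transfection of Cas9-GFP with guides against the first exon of the gene. The study reported reduced protein by immunoblot in both lines. It found a smaller share of mutant reads for *Kmt2c* than for *Kmt2d* in both lines, smallest in 67NR *Kmt2c* KO, so the KO groups were not equally complete. The 168FARN WT columns carried the name of a control guide and the 67NR WT columns the name WT, so that line and control treatment cannot be told apart where the lines are compared. Replicates were collected a passage apart, and the p-values measure the spread between such cultures.

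Library totals ranged from 14359760 to 43427382 counts in 168FARN and from 40951775 to 79251530 in 67NR. In 67NR, 93.35% to 96.44% of counts between 1 and 9 were even, against 35.08% to 44% in 168FARN, so 2 counts were taken as 1 fragment in 67NR wherever a limit on low counts is given. Replicate 3 deviated from replicates 1 and 2 in every group, and the rRNA gene *Rn45s* took 28.7% of the counts of 67NR *Kmt2d* KO replicate 3. The level of *Kmt2c* mRNA was 55.7 to 64.7 CPM (counts scaled to library size) in 67NR WT and 82.9 to 92.2 in 67NR *Kmt2c* KO, and *Kmt2d* mRNA was 138 to 299 CPM in 168FARN *Kmt2d* KO against 106 to 165 in WT. The *Kmt2d* levels of these 168FARN groups overlapped, as did *Kmt2c* at 45.5 to 117 CPM in 168FARN WT against 48.0 to 98.5 in *Kmt2c* KO, and *Kmt2d* at 84.7 to 114 CPM in 67NR WT against 90.9 to 141 in *Kmt2d* KO. Small edits need not lower a mRNA, so these levels do not check the labels.

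Collagens are trimers whose chains wind into a triple helix. Fibrillar collagens (types I, II, III, V, XI, XXIV and XXVII) assemble into the cables of connective tissue, with type V starting type I fibrils. Type IV chains form the sheet of basement membranes, in which *Col4a1* and *Col4a2* are joined in the common trimer, and type VIII forms hexagonal lattices. FACIT collagens sit on fibril surfaces, transmembrane collagens anchor cells, type VI chains build beaded microfilaments next to cells, type VII forms the anchoring fibrils below epithelia, and type XVIII, a multiplexin, is a basement membrane proteoglycan. Epithelial cells lie on type IV and type VII collagen, while mesenchymal cells are the usual source of types I, III, V and VI.

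CPM values are scaled with trimmed mean of M values (TMM) factors over all libraries. RPKM values are the same values per kilobase of exon and are used wherever levels of single genes are compared with each other, while sums over genes are given in CPM and so weigh long transcripts more. Values of single libraries are given for replicates 1, 2 and 3 in that order. Calls required an adjusted p below 0.1 (edgeR quasi-likelihood test, Benjamini-Hochberg over all genes tested) and a log2 fold change beyond 0.6 in either direction, and only a called gene is said to rise or fall. Errors of log2 fold changes are SE.

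Network collagens took most of the collagen counts in every group. The summed level of the 44 members was 1768 ± 224 CPM in 168FARN WT, 2369 ± 304 with *Kmt2c* KO and 1833 ± 73.7 with *Kmt2d* KO (SD, n = 3 each). In 67NR it was 1358 ± 85.5 CPM in WT, 1510 ± 116 with *Kmt2c* KO and 1513 ± 162 with *Kmt2d* KO. Network chains accounted for 64.0% of the group mean in 168FARN WT and 75.0% in 67NR *Kmt2d* KO, with the other groups between. The 3 168FARN *Kmt2c* KO libraries, at 2533, 2557 and 2018 CPM, all lay above the other 15 libraries, of which the highest was at 1966 CPM. No test was made of a sum over chosen genes.

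**Figure D1:**
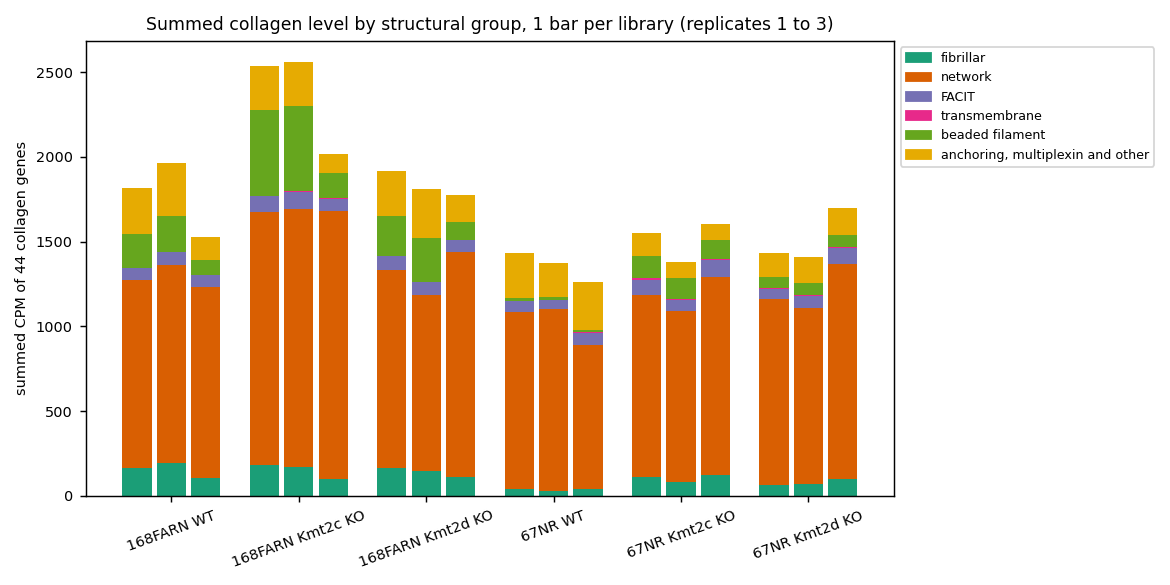
Summed CPM (vertical axis, from 0) of the 44 collagen genes in each of the 18 libraries, stacked by structural group, with replicates 1 to 3 side by side in each group on the horizontal axis. The network share is the largest block of every bar, and the beaded-filament block goes from 14.7 to 17.1 CPM in 67NR WT to 107 to 128 in *Kmt2c* KO and 65.8 to 73.2 in *Kmt2d* KO.

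Per length, *Col4a1*, a chain of the main basement membrane trimer, led in all 168FARN groups and *Col8a1*, the lattice collagen, in all 67NR groups. *Col4a1* stood at 90.5 ± 6.30 RPKM in 168FARN WT and at 31.6 ± 2.36 in 67NR WT (SD, n = 3). *Col8a1* was at 101 ± 21.1 RPKM in 67NR WT and at 26.6 ± 10.6 in 168FARN WT. Below *Col4a1* in 168FARN WT came *Col18a1* at 32.6 ± 13.5 RPKM, *Col4a2* at 32.0 ± 4.25, *Col8a1* and *Col4a5* at 24.8 ± 11.8, and libraries of each overlapped those of the next. *Col6a5* at 11.9 ± 5.09, *Col5a1* at 11.4 ± 3.01 and *Col16a1*, a FACIT collagen, at 8.69 ± 1.16 RPKM followed and also overlapped one another. In 67NR WT the order after *Col8a1* and *Col4a1* was *Col4a5* at 24.5 ± 1.39 RPKM, then *Col18a1* at 15.0 ± 2.79, *Col7a1* at 14.3 ± 4.22 and *Col4a2* at 13.6 ± 2.38, of which the last 3 overlapped. *Col16a1* at 7.81 ± 2.53 RPKM lay below *Col4a2* without overlap, and *Col5a1* at 3.13 ± 0.563 and *Col6a1* at 2.73 ± 0.344 overlapped below it.

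**Figure D2:**
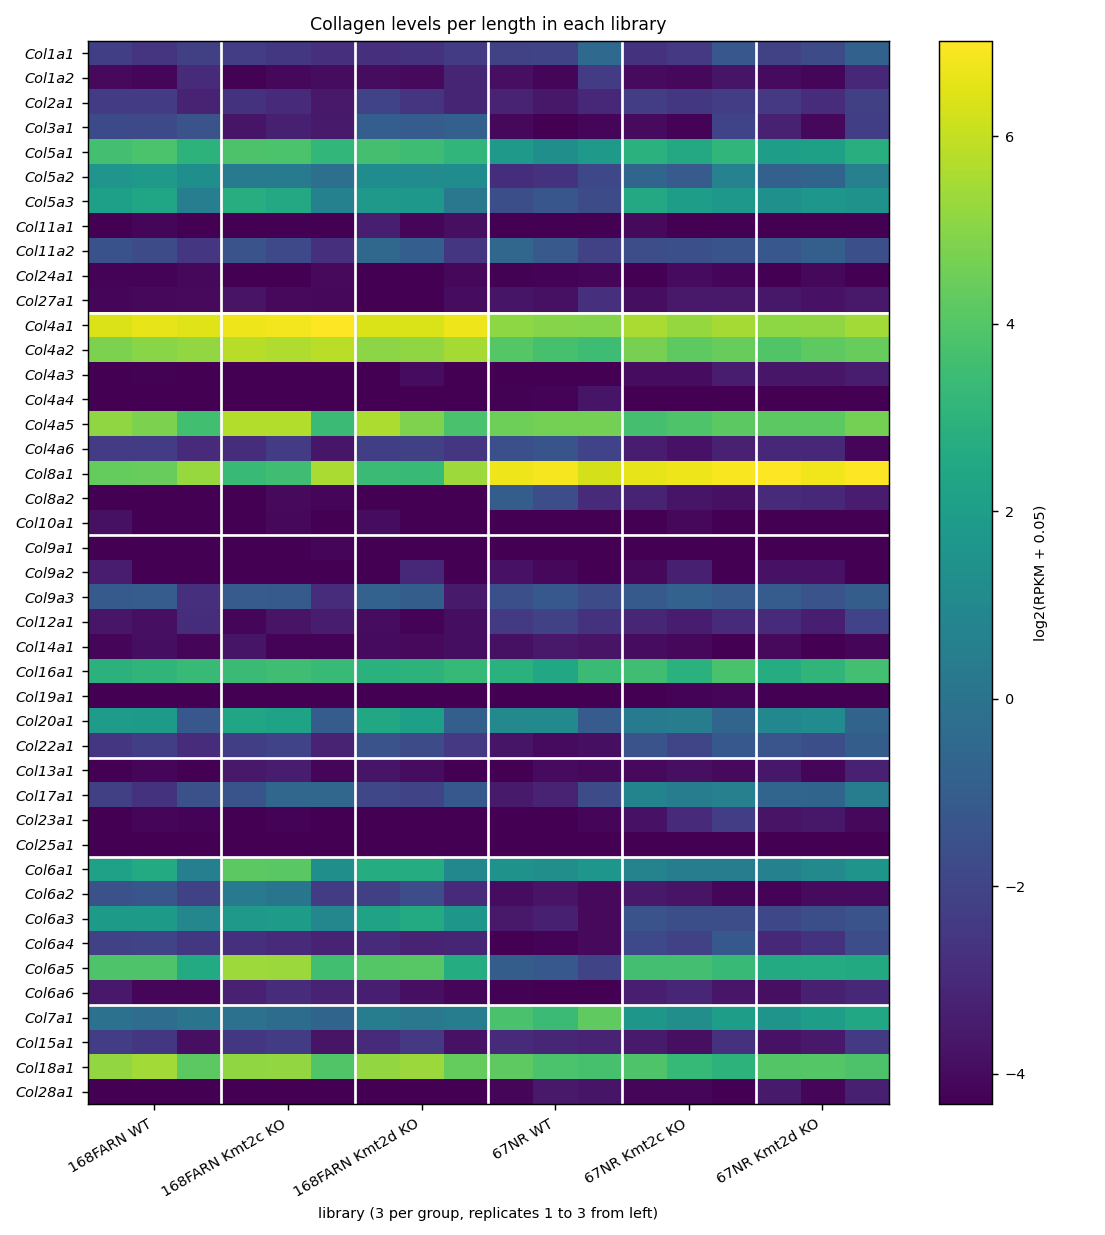
Level of 43 collagen genes with a known exon length (rows, by structural group between white lines: fibrillar, network, FACIT, transmembrane, beaded filament, anchoring with multiplexin and other) in the 18 libraries (columns), as log2(RPKM + 0.05). *Col4a1*, *Col4a2*, *Col4a5*, *Col8a1*, *Col16a1* and *Col18a1* are bright in every group, type I chains are dark throughout, and *Col6a3*, *Col6a5*, *Col5a2* and *Col5a3* are darker in 67NR WT than in the other groups.

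The chains of the main tissue fibril were nearly absent. *Col1a1* ranged from 0.614 to 4.55 CPM over the 18 libraries and *Col1a2*, its partner chain, from 0.0331 to 1.75 CPM. The highest value of each was in replicate 3 of 67NR WT. In all, 19 of 44 members stayed below 1 CPM on average in every group, among them *Col2a1*, *Col4a3*, *Col4a4*, *Col9a1*, *Col9a2*, *Col10a1* and *Col11a1*, and *Col25a1* had 0 counts in all libraries. The low-count filter left 27 members for testing in 168FARN, 33 in 67NR and 31 in the fit over both lines.

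Partner chains were not at equal levels. Per length, the ratio of *Col4a1* to *Col4a2*, whose genes overlap head to head by 22 bases, was 2.45 to 3.08 in 168FARN WT and 1.94 to 2.26 in 168FARN *Kmt2c* KO. In 67NR the same ratio was 2.12 to 2.60 in WT, 1.87 to 2.18 with *Kmt2c* KO and 1.94 to 2.20 with *Kmt2d* KO. *Col4a5* exceeded *Col4a6*, which starts 1308 bases away on the X chromosome, by a median factor of 78.8 in 67NR WT and 336 in 67NR *Kmt2c* KO. *Col6a1* exceeded *Col6a2*, with which it is joined in the classical collagen VI trimer, by a median factor of 14.7 in 168FARN WT and 179 in 67NR WT, where *Col6a2* was at 0.0919 to 0.206 CPM. All these ratios depend on the length used. *Col6a2* has 8326 exon bases but 4912 in its longest transcript, against 4393 and 4100 for *Col6a1*. Per longest transcript, the excess of *Col6a1* would be smaller.

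The WT cells of the lines differed in which collagens they expressed. Type III, all type V chains and all type VI chains but *Col6a1* were lower in 67NR WT than in 168FARN WT, while types VII and VIII were higher. Of 31 members tested, 5 were higher and 13 lower, where 22.3% of all 13882 genes tested were higher and 16.9% lower. The share of members that were higher did not exceed that of all genes. The median log2 fold change of the tested members was -0.78, and that of all genes was 0.03.

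*Col6a3*, the third chain of the classical collagen VI trimer, was at 43.2, 42.7 and 22.1 CPM in 168FARN WT and at 0.414, 0.588 and 0.138 in 67NR WT. Its log2 fold change was -6.52 ± 0.49 (adjusted p = 5.71e-08), and no library of the lines overlapped. *Col6a5*, an alternative to that chain, was at 137, 138 and 55.6 CPM against 4.23, 3.57 and 1.84 (-5.09 ± 0.55, adjusted p = 2.50e-06). *Col5a2*, a chain of the fibril-starting type V, was at 28.2, 33.3 and 23.4 CPM against 0.851, 1.04 and 2.14 (-4.41 ± 0.55, adjusted p = 1.15e-05). All 168FARN libraries were above all 67NR libraries for both genes. The type III chain *Col3a1* was at 2.05, 1.92 and 2.70 CPM against 0.0709, 0 and 0.0459 (-5.71 ± 1.34, adjusted p = 0.00324), and *Col6a2* had a log2 fold change of -3.99 ± 0.78 (adjusted p = 0.000771). *Col6a4* had 145 fragments in the 168FARN WT libraries and 3 in the 67NR ones, a ratio of 45.5 with an exact 95% counting interval of 15.3 to 223. Such intervals cover counting error only.

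In the other direction, *Col7a1*, the anchoring fibril chain, was at 139, 107 and 192 CPM in 67NR WT and at 9.34, 8.0 and 9.89 in 168FARN WT. This was a log2 fold change of 4.01 ± 0.30 (adjusted p = 6.49e-08) without overlap. *Col8a1* was at 548, 603 and 395 CPM in 67NR WT against 103, 106 and 198 (1.92 ± 0.58, adjusted p = 0.0163). Its partner *Col8a2* was at 2.04, 1.23 and 0.367 CPM in 67NR WT and had 0 counts in 168FARN WT, which makes it at least 48.3-fold higher when 3 fragments over the group are taken as the limit. The FACIT chain *Col12a1* was at 2.09, 2.72 and 1.68 CPM against 0.479, 0.306 and 1.37 (1.57 ± 0.68, adjusted p = 0.0858), and this call was lost without replicate 1 or replicate 2 of either line. *Col27a1*, a fibrillar member below 1 CPM in both lines, was the remaining call in this direction and was lost without 168FARN WT replicate 1 or 2 or 67NR WT replicate 3, so that the count fell to 3 without 168FARN WT replicate 1 or 2. The other lower members were *Col5a1*, *Col5a3*, *Col6a6*, *Col22a1*, *Col4a1*, *Col4a2* and *Col18a1*, of which *Col6a6* was lost without 168FARN WT replicate 1 and *Col18a1* without 168FARN WT replicate 2.

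In both KO groups of 67NR, the 3 type V chains and 4 of the 6 type VI chains rose and the type VII chain fell. Of the 33 members tested, 13 rose and 5 fell in *Kmt2c* KO, against 17.9% of all 13665 genes tested that rose and 17.4% that fell. In *Kmt2d* KO, 12 rose and 3 fell, against 13.9% and 11.6% of all genes. In both KO groups the numbers that fell were near the shares of all genes. The median log2 fold change of the tested members was 0.54 with *Kmt2c* KO and 0.34 with *Kmt2d* KO, and that of all genes was -0.02 in both. With the replicate number as a block, 14 members rose and 7 fell in *Kmt2c* KO and 13 rose and 3 fell with *Kmt2d* KO, against 41.3% and 32.7% of all genes called in either direction. A member that passed the low-count filter only through the KO libraries could hardly be other than higher. This applied to *Col4a3*, *Col6a4*, *Col6a6* and *Col23a1*, with 3 fragments or fewer in 67NR WT, which are counted among the members that rose. *Col22a1* and *Col6a3*, down to 8 and 6 counts in a 67NR WT library, also needed KO libraries to pass the filter. They are counted as well and could hardly have been called lower. Both comparisons use the same WT libraries. In these bulk libraries a larger share of collagen-rich cells and more collagen mRNA per cell cannot be told apart.

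**Figure D3:**
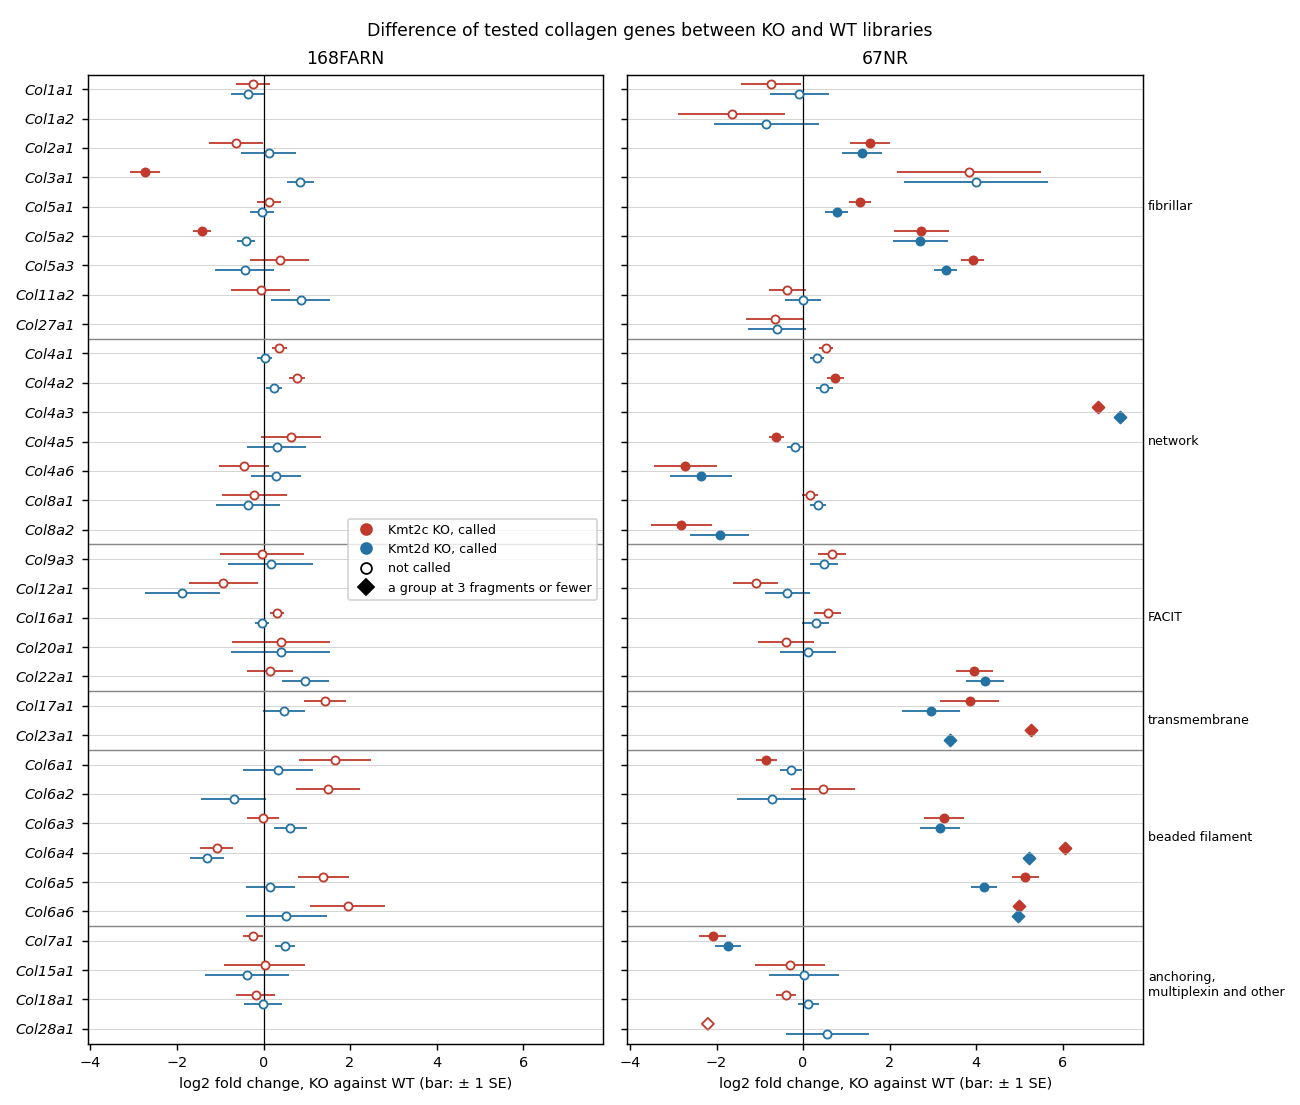
Log2 fold change between KO and WT (horizontal axis) of each tested collagen gene (rows, by structural group) in 168FARN (left) and 67NR (right), with bars of 1 SE. Red marks *Kmt2c* KO, blue marks *Kmt2d* KO, filled symbols were called, and diamonds mark genes with 3 fragments or fewer in a group, whose fitted value is not a bound. The filled points of 67NR lie to the right for the type V chains and for *Col6a3*, *Col6a4*, *Col6a5* and *Col6a6*, among others, and to the left for *Col7a1*, *Col8a2* and *Col4a6* and, in *Kmt2c* KO, *Col4a5* and *Col6a1*, while 168FARN has filled points for *Col3a1* and *Col5a2* only.

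Sequences before the start sites are shown for members that changed together or against each other. *Col6a6*, *Col6a5* and *Col6a4* lie in tandem on the same strand of chromosome 9, with 27984 and 28810 bases between them and no protein-coding gene in the gaps (mm9 chr9:105591747-105730415, chr9:105758400-105862974 and chr9:105891785-105999114). *Col6a3* lies at mm9 chr1:92663435-92740529, *Col5a3* at chr9:20574494-20619511 and *Col7a1* at chr9:108855631-108886920. The windows are the 250 bases upstream of the RefSeq start in GRCm38.p6, chr9:105828086-105828335 on the minus strand for *Col6a6*, chr9:105960644-105960893 on the minus strand for *Col6a5*, chr1:90843972-90844221 on the minus strand for *Col6a3*, chr9:20815068-20815317 on the minus strand for *Col5a3*, chr1:45311288-45311537 on the plus strand for *Col3a1* and chr9:108953336-108953585 on the plus strand for *Col7a1*. Each matched the mm9 genome once, outside annotated exons, and the *Col6a4* window, which did not meet both conditions, is not shown. Capitals mark the searched motifs on either strand, namely the TATA box (TATAAA), the CAAT box (CCAAT), the GC box (GGGCGG), the AP-1 motif (TGANTCA) and the E-box (CACCTG), where N is any base.
*Col6a6*: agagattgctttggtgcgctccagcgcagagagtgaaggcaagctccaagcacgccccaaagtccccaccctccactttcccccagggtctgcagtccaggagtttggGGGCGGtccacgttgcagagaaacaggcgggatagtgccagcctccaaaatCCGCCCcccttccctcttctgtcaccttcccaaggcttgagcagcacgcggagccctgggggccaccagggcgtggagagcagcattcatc
*Col6a5*: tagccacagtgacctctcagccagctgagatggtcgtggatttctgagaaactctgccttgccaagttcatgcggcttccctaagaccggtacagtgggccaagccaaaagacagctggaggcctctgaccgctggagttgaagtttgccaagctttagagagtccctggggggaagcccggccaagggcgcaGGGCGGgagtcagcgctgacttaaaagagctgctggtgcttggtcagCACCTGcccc
*Col6a3*: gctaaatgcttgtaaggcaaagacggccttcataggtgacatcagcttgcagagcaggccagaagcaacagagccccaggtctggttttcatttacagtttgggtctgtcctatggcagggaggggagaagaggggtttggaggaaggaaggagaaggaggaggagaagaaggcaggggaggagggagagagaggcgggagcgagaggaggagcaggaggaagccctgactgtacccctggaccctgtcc
*Col5a3*: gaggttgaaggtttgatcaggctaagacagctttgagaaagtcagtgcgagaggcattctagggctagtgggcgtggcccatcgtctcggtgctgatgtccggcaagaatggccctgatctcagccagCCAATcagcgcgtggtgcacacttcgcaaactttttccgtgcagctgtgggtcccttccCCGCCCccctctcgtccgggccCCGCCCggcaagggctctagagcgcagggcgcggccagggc
*Col3a1*: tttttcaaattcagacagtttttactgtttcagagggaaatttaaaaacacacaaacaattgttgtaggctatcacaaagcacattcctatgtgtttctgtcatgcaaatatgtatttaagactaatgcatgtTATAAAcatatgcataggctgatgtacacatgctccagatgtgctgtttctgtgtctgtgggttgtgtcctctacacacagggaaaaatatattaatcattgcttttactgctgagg
*Col7a1*: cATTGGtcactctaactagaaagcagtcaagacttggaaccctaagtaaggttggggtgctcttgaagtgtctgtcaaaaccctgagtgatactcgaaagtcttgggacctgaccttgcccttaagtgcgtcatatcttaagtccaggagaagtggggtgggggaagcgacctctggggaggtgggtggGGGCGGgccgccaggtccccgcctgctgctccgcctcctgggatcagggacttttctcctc

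The GC box GGGCGG was present in the *Col6a6*, *Col6a5*, *Col5a3* and *Col7a1* windows, in 32.75% of the 32841 windows of the table and in 21 of the 35 collagen members with a window. TATAAA was found only in the *Col3a1* window among those shown, 117 bases before the start, and in 12.37% of all windows. CCAAT, in 33.86% of all windows, was in the *Col5a3* and *Col7a1* windows, 122 and 249 bases before the start. CACCTG, in 17.22%, was in that of *Col6a5*, and TGANTCA, in 6.751%, was in none of those shown. The GC content was 35.2% for *Col3a1* and 56.4% to 62.8% for the others, against a median of 52.4% over all windows. The box was thus in windows of 3 genes that rose in the 67NR KO groups and of *Col7a1*, which fell, while the *Col6a3* window held none of the motifs.

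Among the fibrillar collagens, 9 of 11 members were tested in 67NR, and 4 rose and none fell in each KO. *Col5a3*, the third chain of type V, was at 1.93, 2.48 and 1.72 CPM in WT, 38.4, 26.8 and 22.3 with *Kmt2c* KO and 17.5, 20.9 and 18.7 with *Kmt2d* KO. Its log2 fold changes were 3.92 ± 0.26 (adjusted p = 1.00e-05) and 3.29 ± 0.26 (adjusted p = 3.67e-05), and WT libraries lay below all KO libraries. *Col5a1*, the chain common to most type V trimers, was at 29.5, 21.1 and 29.3 CPM in WT, 64.4, 48.1 and 74.9 with *Kmt2c* KO and 33.5, 37.0 and 59.0 with *Kmt2d* KO (1.31 ± 0.26, adjusted p = 0.00422, and 0.77 ± 0.26, adjusted p = 0.0604). The *Kmt2d* KO call on *Col5a1* was lost without *Kmt2d* KO replicate 3 or WT replicate 1 or 2. *Col5a2* was at 0.851, 1.04 and 2.14 CPM in WT, 5.68, 4.17 and 15.3 with *Kmt2c* KO and 4.89, 5.63 and 14.4 with *Kmt2d* KO. Replicate 3 was the highest of each group, and the WT libraries lay below all KO libraries (2.73 ± 0.64, adjusted p = 0.00957, and 2.71 ± 0.64, adjusted p = 0.0149).

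*Col3a1* was at 0.104, 0.0306 and 1.60 CPM in 67NR *Kmt2c* KO and at 0.443, 0.0736 and 1.41 in *Kmt2d* KO, against 0.0709, 0 and 0.0459 in WT. It was not called in either KO (adjusted p = 0.108 and 0.122), and was called when the replicate number was fitted as a block (adjusted p = 0.0243 and 0.00949). In both KO groups replicate 3 held most of its signal. The fourth called member, *Col2a1*, the cartilage fibril chain, was at 0.206 to 0.436 CPM in WT, 0.779 to 0.939 with *Kmt2c* KO and 0.515 to 1.05 with *Kmt2d* KO. Its call was lost without WT replicate 2 in *Kmt2c* KO and without *Kmt2d* KO replicate 1 or 3 or WT replicate 1 or 2 in *Kmt2d* KO. *Col1a1* was at 0.704, 0.886 and 2.42 CPM in *Kmt2c* KO against 1.21, 1.29 and 4.55 in WT (-0.74 ± 0.69, adjusted p = 0.461) and was called lower only with the block (-0.67, adjusted p = 0.0697). Without WT replicate 3 its log2 fold change was 0.16.

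Of the 9 network members, 7 were tested in 67NR. In *Kmt2c* KO 2 rose and 3 fell, and in *Kmt2d* KO 1 rose and 2 fell. *Col4a2* was at 107, 88.0 and 75.5 CPM in WT (mm9 chr8:11312805-11449287 on the plus strand) and at 168, 122 and 137 in *Kmt2c* KO (0.75 ± 0.19, adjusted p = 0.0153). Its WT libraries lay below those of *Kmt2c* KO, the call was lost without *Kmt2c* KO replicate 1, and *Kmt2d* KO, at 101, 121 and 138 CPM, overlapped WT. *Col4a1* had log2 fold changes of 0.54 ± 0.17 in *Kmt2c* KO and 0.33 ± 0.17 in *Kmt2d* KO, under the fold threshold.

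The X-linked type IV chains both fell in *Kmt2c* KO, and *Col4a6* also in *Kmt2d* KO. *Col4a5* was at 154, 170 and 170 CPM in WT and at 86.6, 99.2 and 119 in *Kmt2c* KO (-0.62 ± 0.18, adjusted p = 0.0255), close to the fold threshold, and the call was lost without *Kmt2c* KO replicate 1 or 2 or WT replicate 3. Its *Kmt2d* KO libraries, at 122, 121 and 170 CPM, reached the WT level in replicate 3. *Col4a6* was at 2.33, 2.72 and 1.52 CPM in WT, 0.339, 0.183 and 0.422 with *Kmt2c* KO and 0.590, 0.552 and 0.0502 with *Kmt2d* KO (-2.72 ± 0.73, adjusted p = 0.0185, and -2.35 ± 0.72, adjusted p = 0.0439), with all WT libraries above all KO libraries, and the *Kmt2d* KO call was lost without WT replicate 1 or 2. *Col4a3*, a chain of specialised basement membranes, had 0 counts in 67NR WT and was at 0.153 to 0.399 CPM in *Kmt2c* KO and 0.294 to 0.402 in *Kmt2d* KO, at least 6.91-fold and at least 10.6-fold higher against the limit of 3 fragments over the group. Its partner *Col4a4*, 71 bases away on the other strand, had 0 counts in both KO groups and 0.0236 to 0.230 CPM in WT and was not tested.

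*Col8a1* was high in all 67NR groups, at 491, 535 and 604 CPM in *Kmt2c* KO and 649, 555 and 655 in *Kmt2d* KO, and was not called. *Col8a2* was at 2.04, 1.23 and 0.367 CPM in WT, 0.261, 0.122 and 0.0939 with *Kmt2c* KO and 0.369, 0.331 and 0.201 with *Kmt2d* KO. It fell by 2.81 ± 0.71 on the log2 scale in *Kmt2c* KO (adjusted p = 0.0139) and by 1.93 ± 0.68 in *Kmt2d* KO (adjusted p = 0.0733), where WT replicate 3 overlapped the KO libraries. Of the 6 fits that left out a library, only that without WT replicate 3 kept the second call.

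**Figure D4:**
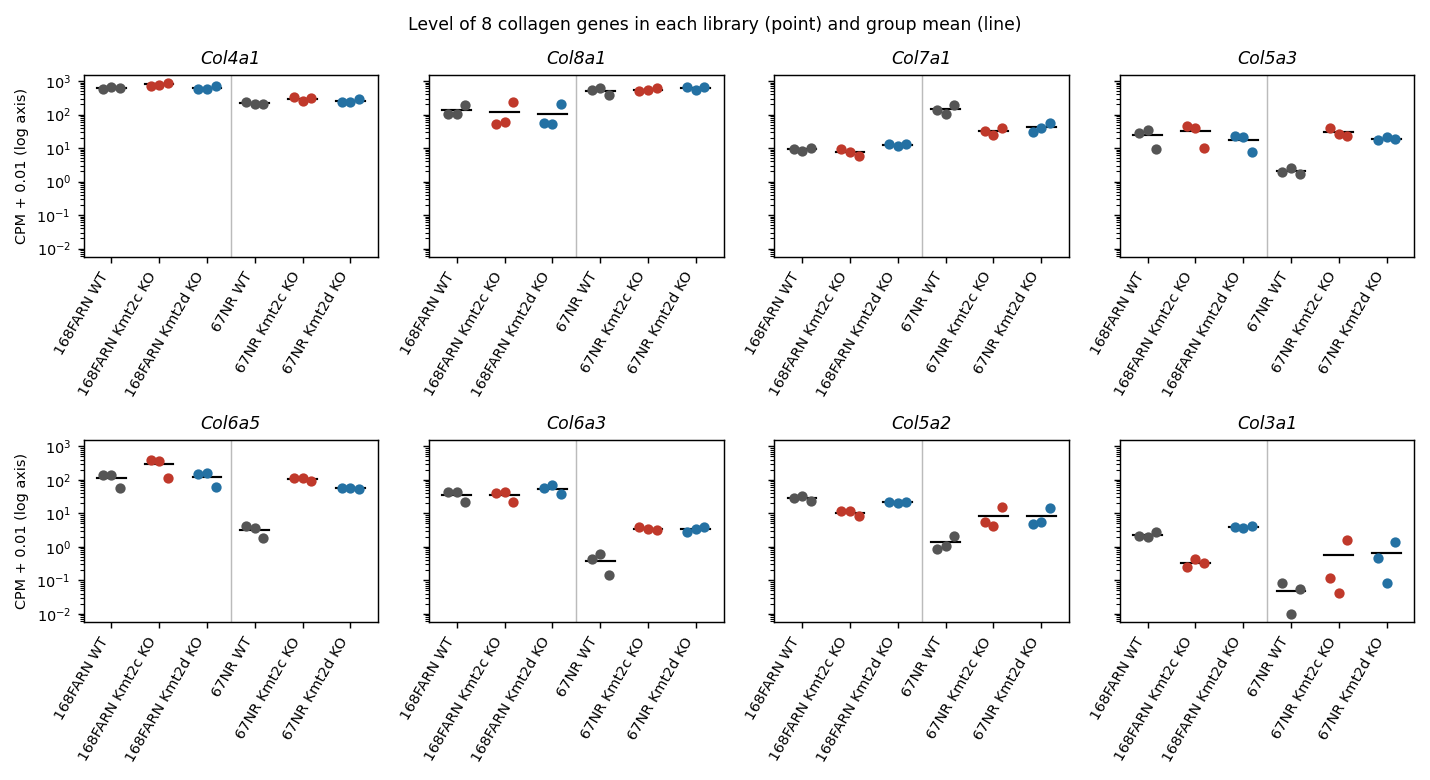
Level of 8 collagen genes in each library (points, CPM + 0.01 on a log axis) with the group mean (line), for the 3 groups of 168FARN left of the grey line and the 3 groups of 67NR right of it. *Col5a3*, *Col6a5*, *Col6a3* and *Col5a2* are lowest in 67NR WT, *Col7a1* is highest there, and *Col3a1* is lower in 168FARN *Kmt2c* KO than in the other 168FARN groups.

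Type VI collagen had 4 chains that rose in both KO groups of 67NR, namely *Col6a3* and the alternative chains *Col6a4*, *Col6a5* and *Col6a6* that can stand in for it. *Col6a5* was at 4.23, 3.57 and 1.84 CPM in WT, 114, 113 and 94.4 with *Kmt2c* KO and 55.5, 57.2 and 53.8 with *Kmt2d* KO. The log2 fold changes were 5.14 ± 0.31 (adjusted p = 5.74e-06) and 4.18 ± 0.29 (adjusted p = 2.18e-05), and no libraries overlapped. *Col6a3* was at 0.414, 0.588 and 0.138 CPM in WT, 3.86, 3.38 and 3.22 with *Kmt2c* KO and 2.73, 3.39 and 3.82 with *Kmt2d* KO (3.25 ± 0.46, adjusted p = 0.000654, and 3.17 ± 0.46, adjusted p = 0.00127), also without overlap. Even so, *Col6a3* stayed below its 168FARN WT range of 22.1 to 43.2 CPM.

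The neighbours of *Col6a5* in the tandem array were nearly silent in 67NR WT. *Col6a4* had 3 fragments in the 67NR WT libraries and stood at 1.96, 1.59 and 3.24 CPM in *Kmt2c* KO and 0.627, 0.939 and 2.31 in *Kmt2d* KO, ratios of 69.4 (95% counting interval 23.4 to 339) and 39.0 (12.8 to 192). *Col6a6* had 1 fragment in WT and was at 0.235 to 0.489 CPM in *Kmt2c* KO and 0.148 to 0.552 in *Kmt2d* KO, ratios of 36.1 (6.06 to 1468) and 33.1 (5.41 to 1358). All 3 genes of the array were called in both KO groups. With so few fragments in WT, *Col6a4* and *Col6a6* could hardly be other than higher, so their calls add little to that of *Col6a5*.

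The first chains of collagen VI did not follow. *Col6a1*, needed in every type VI trimer, was at 12.3, 10.4 and 13.3 CPM in WT and fell in *Kmt2c* KO to 7.12, 5.90 and 5.80 (-0.85 ± 0.25, adjusted p = 0.0263) without overlap. In *Kmt2d* KO it was at 6.81, 8.67 and 12.6 CPM, overlapped WT and was not called. *Col6a2* remained between 0.0369 and 0.287 CPM in all 9 libraries of 67NR. Per length, the ratio of *Col6a3* to *Col6a1* was 0.00380 to 0.0209 in 67NR WT, 0.199 to 0.210 in *Kmt2c* KO and 0.111 to 0.147 in *Kmt2d* KO, and 0.583 to 1.27 in 168FARN WT.

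*Col7a1* was at 139, 107 and 192 CPM in 67NR WT, 32.6, 24.5 and 40.1 in *Kmt2c* KO and 29.1, 40.0 and 56.4 in *Kmt2d* KO. It fell by 2.09 ± 0.31 on the log2 scale (adjusted p = 0.000852) and by 1.73 ± 0.31 (adjusted p = 0.00368), with every WT library above every KO library. It was the only one of 4 tested members of the anchoring, multiplexin and other group to be called. The multiplexin *Col18a1* was at 128, 97.3 and 91.4 CPM in WT, 104, 67.1 and 55.8 with *Kmt2c* KO and 110, 115 and 101 with *Kmt2d* KO, with overlap and no call.

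Of the 9 FACIT members 5 were tested in 67NR, and *Col22a1* was called in both KO groups. *Col12a1*, at 2.09, 2.72 and 1.68 CPM in WT and 0.992, 0.672 and 1.22 in *Kmt2c* KO without overlap (-1.09 ± 0.52, adjusted p = 0.141), was called lower there with the block (-1.20, adjusted p = 0.0451). *Col22a1*, a collagen of tissue junctions, was at 0.260, 0.118 and 0.184 CPM in WT, 2.95, 1.89 and 3.54 with *Kmt2c* KO and 3.19, 2.61 and 4.22 with *Kmt2d* KO (3.95 ± 0.43, adjusted p = 0.000136, and 4.20 ± 0.44, adjusted p = 0.000179), without overlap. *Col16a1*, the most abundant FACIT chain per length, was at 50.4, 36.9 and 70.8 CPM in WT, 79.0, 51.5 and 90.3 with *Kmt2c* KO and 43.3, 57.5 and 83.2 with *Kmt2d* KO, with overlap. Both of the 2 transmembrane members tested rose in both KO groups. *Col17a1*, the hemidesmosome collagen of epithelia, was at 0.213, 0.338 and 1.45 CPM in WT, 9.69, 7.79 and 8.66 with *Kmt2c* KO and 3.51, 3.33 and 7.43 with *Kmt2d* KO (3.84 ± 0.69, adjusted p = 0.00250, and 2.96 ± 0.67, adjusted p = 0.0125), without overlap. *Col23a1* had 1 fragment in the WT libraries and 39 in *Kmt2c* KO and 10 in *Kmt2d* KO, where the call was lost without replicate 1 or 2 of either group.

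Markers of cell state moved with these changes in 67NR. Of 12 epithelial markers, 11 were at 1 CPM or more in WT, and their summed level was 2902 to 4314 CPM in WT, 614 to 853 with *Kmt2c* KO and 1088 to 1719 with *Kmt2d* KO. The 8 mesenchymal markers summed to 479 to 1954 CPM in WT, 4591 to 8105 with *Kmt2c* KO and 3424 to 7323 with *Kmt2d* KO. For 6 fibroblast markers the sums were 32.1 to 69.2, 1285 to 1798 and 890 to 1108 CPM. *Thy1* and *Dpt* were under 0.1 CPM in each 67NR group, and *Fap* was under 0.1 CPM in *Kmt2c* KO. Of 4 fibroblast markers tested, 3 rose in both KO groups, and with the block 1 was called lower in *Kmt2c* KO. Of the 11 epithelial markers tested, 11 fell in *Kmt2c* KO and 8 in *Kmt2d* KO, and all 8 mesenchymal markers rose in both. The immune markers *Ptprc*, *Adgre1* and *Cd3e* and the endothelial markers *Kdr* and *Tie1* were under 0.1 CPM on average in every group. The 6 immune markers summed to 22.4 to 37.0 CPM in 67NR WT, 23.3 to 70.2 with *Kmt2c* KO and 28.6 to 81.6 with *Kmt2d* KO, mostly from *Cd68*, which was not called. Of 3 immune markers tested, *Lyz2* rose in both KO groups (2.81 and 3.06) and *Cd79a* in *Kmt2c* KO (3.72). *Cd79a* was under 0.1 CPM on average in 67NR WT, needed KO libraries to pass the low-count filter and could hardly have been called lower. Of 2 endothelial markers tested, *Cdh5* rose in both, from a mean of 0.256 CPM to 1.51 and 0.845, and it also rose in 168FARN *Kmt2c* KO (2.61, adjusted p = 0.0537, called in 2 of 6 fits that left out a library). In 168FARN WT the 12 epithelial markers summed to 128 to 398 CPM, nearly all of it *Krt8* at a mean of 217 CPM. The other epithelial markers were below 1 CPM there, with *Krt18*, *Krt19*, *Epcam* and *Cdh1* under 0.1 CPM, while the mesenchymal markers summed to 7749 to 10617 CPM, although the source label of both lines is breast cancer. The part of these markers in the collagen differences was not tested.

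In 168FARN, fewer collagens were called. In *Kmt2c* KO 2 of 27 members tested fell and none rose, where 0.196% of all 12253 genes tested rose and 0.163% fell. The called members were *Col3a1* and *Col5a2*, which are neighbours on mm9 chromosome 1 (*Col3a1* at 45368383 to 45406551 on the plus strand and *Col5a2* at 45431166 to 45560127 on the minus strand), with no protein-coding gene in the 24614 bases between their 3′ ends. *Col3a1* was at 2.05, 1.92 and 2.70 CPM in WT and 0.232, 0.427 and 0.328 in *Kmt2c* KO (-2.74 ± 0.34, adjusted p = 0.0295). *Col5a2* was at 28.2, 33.3 and 23.4 CPM in WT and 11.9, 11.6 and 8.12 in *Kmt2c* KO (-1.42 ± 0.21, adjusted p = 0.0537). Every WT library lay above every KO library for both genes. Over the alternatives tried, the adjusted p ranged from 1.30e-11 to 0.210 for *Col3a1* and from 1.54e-08 to 0.276 for *Col5a2*, and both calls were lost without *Kmt2c* KO replicate 1 or 2 or WT replicate 1 or 2, and when the 6 libraries of the groups were fitted alone.

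Replicate 3 of 168FARN had other collagen levels than replicates 1 and 2 in every genotype. The ratio of replicate 3 to the mean of the others was 0.205 to 0.379 for *Col4a5*, 0.247 to 0.338 for *Col5a3*, 0.139 to 0.293 for *Col6a1*, 0.297 to 0.404 for *Col6a5* and 0.0912 to 0.102 for *Col20a1*, over the 3 genotypes. For *Col8a1* it was 1.90 to 4.28. The replicate number was taken to pair the libraries and was also fitted as a block. Deviations from group means did not separate numbers 1 and 2. In 168FARN they correlated at 0.597 to 0.708 between these numbers, 0.659 to 0.703 within number 1 and 0.624 to 0.711 within number 2. The block raised the calls in *Kmt2c* KO to 6 members higher and 3 lower, where 7.23% of all genes were called in either direction.

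**Figure D5:**
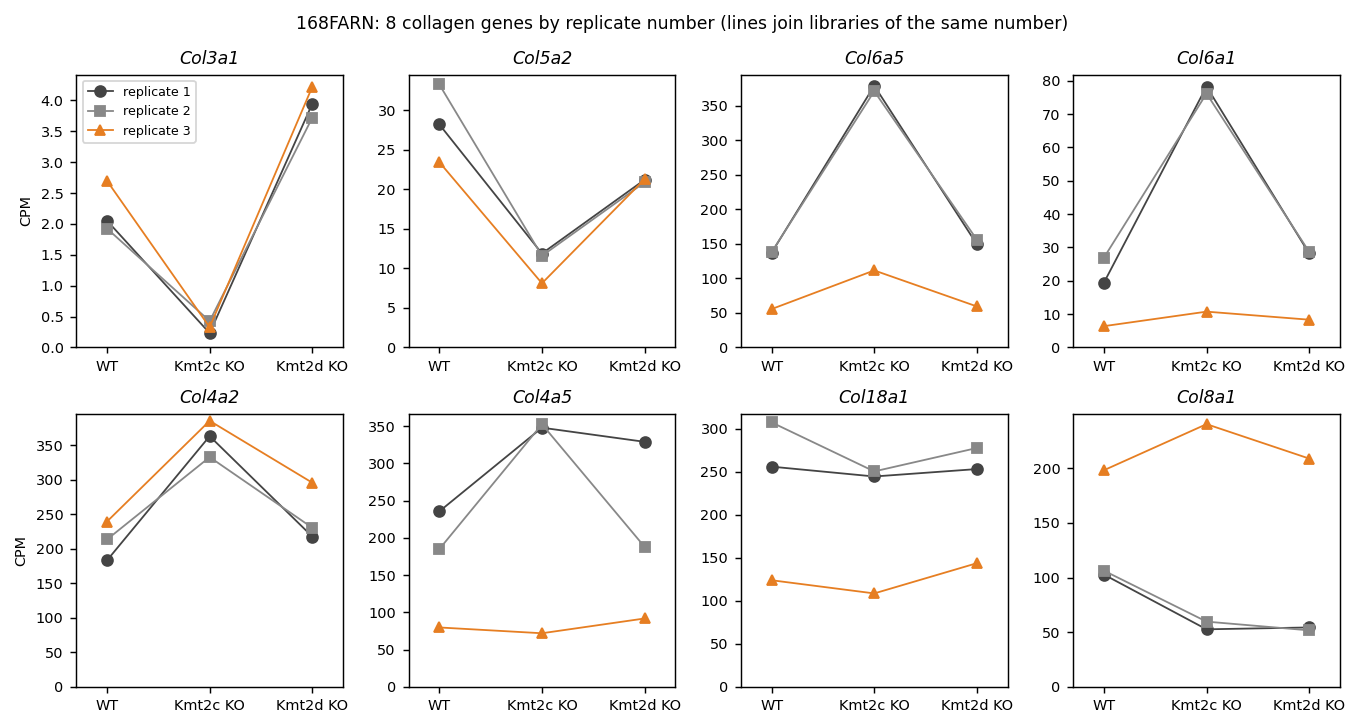
CPM (vertical axes, from 0) of 8 collagen genes in the WT, *Kmt2c* KO and *Kmt2d* KO libraries of 168FARN, with lines joining libraries of the same replicate number. *Col3a1* and *Col5a2* are low in *Kmt2c* KO in all 3 replicates, *Col6a5*, *Col6a1* and *Col4a2* are higher in *Kmt2c* KO than in WT in all 3, and replicate 3 runs apart from the others for *Col6a5*, *Col6a1*, *Col4a5*, *Col18a1* and *Col8a1*.

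With the block, *Col6a5* was called in 168FARN *Kmt2c* KO (1.31, adjusted p = 4.36e-05). It was at 379, 371 and 112 CPM against 137, 138 and 55.6 in WT, which are ratios of 2.76, 2.69 and 2.01 within replicate numbers, and without the block the groups overlapped and the adjusted p was 0.801. *Col6a1*, at 78.3, 76.2 and 10.7 CPM against 19.4, 26.9 and 6.39, was called with the block as well (1.47, adjusted p = 0.00237). *Col4a2*, at 363, 333 and 385 CPM against 183, 213 and 239 without overlap, had a log2 fold change of 0.77 ± 0.19, with an adjusted p of 0.301 without and 0.00123 with the block. *Col17a1* at 1.92, 3.55 and 3.55 CPM against 0.992, 0.611 and 1.73 (1.48 with the block, adjusted p = 0.0146) was likewise higher in every replicate number. *Col6a2* and *Col6a6* were the other higher calls of the blocked fit, but *Col6a2* had a ratio of 0.788 in replicate 3 against 4.07 and 2.82 in the other numbers. *Col6a4* was the third lower call (-1.09 with the block, adjusted p = 0.0653), at 0.828, 0.694 and 0.492 CPM against 1.51, 1.68 and 1.09, so that the members of the tandem array did not change in one direction.

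None of 27 members was called in 168FARN *Kmt2d* KO by edgeR's quasi-likelihood test, where 0.147% of all genes rose and 0.139% fell. By unadjusted p under 0.05 there were 2 members, and DESeq2 called 1 higher and 1 lower. With the block, 3 members were called, where 5.90% of all genes were called in either direction. These were *Col6a3*, at 55.1, 71.6 and 37.6 CPM against 43.2, 42.7 and 22.1 in WT (0.64, adjusted p = 0.00467), *Col3a1*, at 3.94, 3.72 and 4.22 CPM against 2.05, 1.92 and 2.70 (0.85, adjusted p = 0.0720), and *Col6a4*, at 0.657, 0.501 and 0.527 CPM (-1.28, adjusted p = 0.0630). *Col3a1* thus lay above the WT range in *Kmt2d* KO and below it in *Kmt2c* KO.

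Compared directly in 168FARN, *Kmt2c* KO and *Kmt2d* KO differed in *Col3a1*, the only member called (-3.58 ± 0.35, adjusted p = 0.0196), where 0.131% of all genes were called higher and 0.122% lower. This call was lost without *Kmt2c* KO replicate 1 or replicate 2. With the block, 4 members were higher and 4 lower in *Kmt2c* KO, against 5.33% of all genes in either direction. The higher ones were *Col6a5* (1.16, adjusted p = 0.000119), *Col6a1*, *Col6a2* and *Col5a3*, and the lower ones *Col3a1*, *Col5a2* (-1.04, adjusted p = 0.00104), *Col6a3* and *Col7a1*.

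In 67NR, no member was called between *Kmt2c* KO and *Kmt2d* KO by edgeR, where 0.132% of all genes passed as higher in *Kmt2c* KO and 1.28% as lower. By unadjusted p under 0.05 there were 5 members, and DESeq2 called 1 higher. *Col6a5*, at 114, 113 and 94.4 against 55.5, 57.2 and 53.8 CPM without overlap, had a log2 fold change of 0.96 ± 0.26 (adjusted p = 0.185). It was called with the block (0.94, adjusted p = 0.00949), as was *Col5a3* (0.60, adjusted p = 0.0896), against 7.29% of all genes in either direction.

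The difference between the lines in the KO effect was tested as an interaction over all 18 libraries. For *Kmt2c* KO, 10 of 31 members had a higher and 3 a lower effect in 67NR than in 168FARN, where this held for 8.49% and 7.55% of all 13882 genes. With the block it was 11 and 6, against 34.6% of all genes in either direction, and without 67NR *Kmt2c* KO replicate 3 it was 6 higher. For *Kmt2d* KO it was 7 and 1, against 6.68% and 3.92% of all genes, and 11 and 2 with the block, against 28.4% of all genes in either direction. Without the block, the numbers with a lower effect were near the shares of all genes for both KO. *Col5a2*, which fell in 168FARN *Kmt2c* KO and rose in 67NR *Kmt2c* KO, had an interaction of 4.08 ± 0.71 (adjusted p = 0.00106). *Col3a1*, low in 168FARN *Kmt2c* KO, had one of 6.47 ± 1.71 (adjusted p = 0.0214), although the difference in 67NR was not called, and this was lost without 67NR *Kmt2c* KO replicate 3. *Col7a1*, at 9.43, 7.82 and 5.82 CPM in 168FARN *Kmt2c* KO and 13.3, 11.4 and 13.2 in *Kmt2d* KO, had interactions of -1.93 ± 0.39 (adjusted p = 0.00330) and -2.28 ± 0.39 (adjusted p = 0.00140). For *Col6a1* the *Kmt2c* KO interaction was -2.58 ± 0.88 (adjusted p = 0.0735), called in 3 of 12 fits that left out a library.

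Genes that make, cross-link, bind or cleave collagen were read from 2 further lists. Of the 34 biosynthesis genes found, 26 were tested in each line. None was called in 168FARN in either KO, with 4 in *Kmt2c* KO and 3 in *Kmt2d* KO at an unadjusted p under 0.05 and DESeq2 calls on 2 and 0. With the block, 1 was called higher and 1 lower in 168FARN *Kmt2c* KO, and 1 lower in *Kmt2d* KO. These stood against 7.23% and 5.90% of all genes in either direction. In 67NR, 10 rose and 4 fell in *Kmt2c* KO, against 17.9% and 17.4% of all genes, and 8 rose and 3 fell in *Kmt2d* KO, against 13.9% and 11.6%. The numbers that fell were near these shares. *Loxl1*, which cross-links collagen and elastin, was at 2.07 to 2.66 CPM in WT, 24.5 to 32.6 with *Kmt2c* KO and 14.6 to 23.5 with *Kmt2d* KO (3.65 ± 0.24, adjusted p = 8.11e-06, and 3.03 ± 0.23, adjusted p = 3.06e-05). *Adamts14*, a procollagen N-proteinase, and *Plod1*, a lysyl hydroxylase, were the next risers by p, with log2 fold changes of 2.65 and 1.22 in *Kmt2c* KO and 2.17 and 0.80 in *Kmt2d* KO. *Crtap*, a part of the prolyl 3-hydroxylase complex, was at 32.4 to 45.2 CPM in WT and fell to 8.17 to 8.99 in *Kmt2c* KO and 14.8 to 21.2 in *Kmt2d* KO. *Bmp1*, a procollagen C-proteinase, and *P4ha2*, a prolyl 4-hydroxylase subunit, also fell in both, by 1.44 and 1.56 on the log2 scale in *Kmt2c* KO and by 1.11 and 0.99 in *Kmt2d* KO. *Crtap* lay the other way in 168FARN *Kmt2c* KO, at 17.4, 16.5 and 6.42 CPM against 2.74, 2.72 and 2.79 in WT. These libraries did not overlap, but *Crtap* was not called there in the fit without the block.

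Of 18 binding and turnover genes, 11 were tested in 168FARN and none was called in either KO, with 2 and 0 at an unadjusted p under 0.05 and DESeq2 calls on 1 and 0. With the block, 2 were called higher and 1 lower in each 168FARN KO, against 7.23% (*Kmt2c* KO) and 5.90% (*Kmt2d* KO) of all genes in either direction. In 67NR 14 were tested, of which 4 rose and 3 fell in *Kmt2c* KO, against the same 17.9% and 17.4% of all genes, and 4 rose and 2 fell in *Kmt2d* KO, against 13.9% and 11.6%. *Mrc2*, an endocytic collagen receptor, was at 4.0 to 11.3 CPM in WT, 87.5 to 131 with *Kmt2c* KO and 66.5 to 79.9 with *Kmt2d* KO (3.78 ± 0.37, adjusted p = 7.19e-05, and 3.22 ± 0.36, adjusted p = 0.000279). The fibril-associated proteoglycans *Dcn* and *Lum* rose in both, with *Dcn* at 0.0459 to 0.264 CPM in WT and 1.31 to 3.68 in *Kmt2c* KO. *Mmp13*, a collagenase, was at 277, 312 and 37.6 CPM in WT and fell to 10.1 to 14.4 in *Kmt2c* KO and 15.4 to 21.5 in *Kmt2d* KO. *Itga1*, a collagen receptor subunit, fell in both and *Itga2* in *Kmt2c* KO, where it was at 2.21 to 3.52 CPM against 10.9 to 15.0 in WT.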

How the data were processed

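PolyA RNA of 168FARN and 67NR cultures was sequenced in 18 libraries made with a strand-specific kit. Per the labels and the methods, the authors aligned the reads with STAR to mm9 in the VIPER pipeline and deposited raw gene counts, 1 table per line, with all replicates as separate columns. The counting mode and its strand setting are not given in the sources used here. Symbols were taken as the tables give them, and exon lengths and positions from Gencode annotation of mm9. Since the strand setting is unknown, levels of the 9 members that share exon bases with another gene are uncertain. The shared bases are at most 6.07% of a member's exon length (*Col9a3*), and how many counts they contribute was not tested.

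Counts were analysed with edgeR 4.0.16 in R 4.3.3 (TMM factors, filterByExpr, robust quasi-likelihood fit), with genotype as the only term for the 9 libraries of a line and line by genotype for all 18. Calls required an adjusted p below 0.1 and a log2 fold change beyond 0.6 in either direction. DESeq2 1.42.0, DESeq2 size factors in edgeR, no filter, the replicate block, another call rule, the 6 libraries of the compared groups, the longest transcript as length, CPM without TMM and leaving out each library were alternatives, and halved 67NR counts and replicates 1 and 2 only were added after seeing the data. The fits were tested on simulated counts. Library totals, at 14359760 to 79251530, limit the precision of members under 1 CPM.

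Replicate numbers come from the labels. Deviations from group means were correlated between all libraries of the same number (r = 0.624 to 0.885 in 168FARN and 0.319 to 0.686 in 67NR), so the numbers were taken to pair the libraries, although replicates 1 and 2 also correlated with each other (0.597 to 0.708 and 0.253 to 0.48). Replicate 3 correlated negatively with both.

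The members and lists were chosen with earlier results of these data known. Values were given for the 10 most abundant members per length of each line, for at most 6 called members per direction in each comparison at 1 CPM or more in a group, for members with a called interaction, for partner chains and for at most 3 called genes per direction of the other lists. Members named beyond this rule to complete a count, such as those called only with the block, and the promoter windows were chosen after their values were seen. Promoters are RefSeq starts in GRCm38.p6, found for 35 of 44 members.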

Additional observations from a re-analysis of the deposited data

Results flagged for a closer look

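The results below were singled out because the KO effect differed between the lines by the interaction term of edgeR's quasi-likelihood test over 18 libraries. Values are differences in log2 fold change, 67NR minus 168FARN.

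For *Kmt2c* KO, the effect was higher in 67NR for the collagen VI chains *Col6a4* (7.0), *Col6a5* (3.67) and *Col6a3* (3.16). It was also higher for *Col3a1* (6.47), *Col5a2* (4.08), *Col5a3* (3.47) and *Col5a1* (1.11) among the fibrillar chains. The remaining members with a higher effect were *Col4a3* (8.54), *Col22a1* (3.72) and *Col17a1* (2.31). It was lower for *Col8a2* (-6.36), *Col6a1* (-2.58) and *Col7a1* (-1.93). The adjusted p ranged from 0.000266 for *Col6a4* to 0.0982 for *Col17a1*.

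For *Kmt2d* KO, the effect was higher in 67NR for *Col6a4* (6.44), *Col6a6* (4.33), *Col6a5* (3.96) and *Col6a3* (2.47), for *Col5a3* (3.67) and *Col5a2* (3.06), and for *Col22a1* (3.18). It was lower for *Col7a1* (-2.28). The adjusted p ranged from 0.000918 for *Col6a4* to 0.0760 for *Col6a6*.

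Fitted values of *Col4a3*, *Col8a2*, *Col6a4* and *Col6a6*, which had 3 fragments or fewer in a group, depend on the prior count and are not bounds. Of the *Kmt2c* KO interactions, *Col5a1* was called in 5 of 12 fits that left out a library and *Col4a3*, *Col17a1* and *Col6a1* in 3 of 12 each, and the *Kmt2d* KO interaction of *Col6a6* in 5 of 12.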

How the results depend on the processing

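Counts of called collagen genes in 67NR KO groups against WT stayed within 1.5 times under every alternative run, except 1 to 3 lower calls in *Kmt2d* KO when single libraries were left out (1 without WT replicate 1 or 2). In 168FARN the counts depended on the model. *Kmt2c* KO against WT gave higher calls on 1 member with DESeq2, 6 with the replicate block and 6 with replicates 1 and 2 only. Its lower calls, 2 in the report, were 0 with the 6 libraries alone, 4 with replicates 1 and 2 only, 1 at an adjusted p under 0.05 with no fold threshold and 0 to 2 without single libraries. *Kmt2d* KO against WT gave higher and lower calls on 1 and 1 with DESeq2, 2 and 1 with the block and 3 and 2 with replicates 1 and 2 only. *Kmt2c* KO against *Kmt2d* KO in 168FARN gave 4 higher and 4 lower with the block, 6 and 3 with replicates 1 and 2 only, 3 lower with DESeq2, 0 lower with 6 libraries and 0 to 1 lower without single libraries. In 67NR the same comparison gave higher calls on 1 with 6 libraries, 1 with DESeq2, 2 with the block and 5 with replicates 1 and 2 only, which also gave 2 lower. WT against WT gave 3 to 5 higher calls without single libraries. The *Kmt2c* KO interaction gave 6 to 12 higher and 1 to 5 lower without single libraries, and its lower calls were 6 with the block, 6 with replicates 1 and 2 only and 1 at the stricter p. The *Kmt2d* KO interaction gave 11 higher with the block, and its lower calls were 2 with DESeq2, 2 with the block, 5 with replicates 1 and 2 only and 2 with halved 67NR counts. The summed collagen level of 67NR *Kmt2c* KO was 1646 CPM without TMM. *Col1a1* in 67NR *Kmt2c* KO ranged from -1.46 to 0.16 without single libraries and turned positive without WT replicate 3. The cause of these changes was not tested. Of the values for single genes, 1415 kept their direction and side of the threshold, 85 passed it, 110 lost it and 1 changed sign. Members under 1 CPM are limited by depth.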
